A study of Mus musculus with 30 samples.

Results

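Chromatin accessibility was followed at 9 genes of the NF-κB system in cultured mouse natural killer (NK) cells. The genes were the subunit genes Nfkb1, Nfkb2, Rel, Rela and Relb and the inhibitor and related genes Nfkbia, Nfkbid, Nfkbiz and Tnfaip3. Their members were every peak that the deposited ATAC-seq atlas assigns to one of these gene names, 61 of 38526 peaks. Nfkb1 had 17 of them, Tnfaip3 16, Nfkbiz 11, Rel 6, Nfkbia 6, Relb 2, Nfkbid 2 and Rela 1, and Nfkb2 had 0. By the atlas's own classes 35 were intergenic, 12 intronic, 8 in promoters and 6 exonic, and they were 449 to 2582 bp wide. All 61 passed the filter on low values, a mean of at least 10 normalised counts. For 60 of the 61 the assigned gene was also the nearest protein-coding RefSeq gene. Non-coding genes were not compared. The exception was an intergenic peak assigned to Rel that lay 47.8 kb from Rel and 41.4 kb from Papolg.

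ATAC-seq tags open DNA with a transposase, so a higher count at a peak means that more of the sampled DNA there was open. The 30 libraries came from spleen NK cells kept in culture 5 days in medium with IL-2 plus IL15:IL15Ra. Wild-type (WT) cells came from C57BL/6J mice. The knockout (KO) cells came from GzmbCrePtger2-/-Ptger4fl/fl mice, which lack the prostaglandin E2 (PGE2) receptor gene Ptger2 (EP2) and carry a floxed Ptger4 (EP4) for deletion by a Cre under granzyme B control. Because WT cells carried no Cre, receptor loss and Cre cannot be told apart between genotypes. Treatment of either genotype took 5 h, without PGE2 (0 ng/ml, untreated) or with 100 ng/ml of it. Cells either rested throughout or, once 1 h had passed, received anti-NK1.1 stimulation during the remaining 4 h. NK1.1 is an activating receptor of NK cells, and EP2 and EP4 signal through cAMP. Each of the 8 groups held 4 libraries, numbered 1 to 4, except resting WT cells with PGE2 and resting untreated KO cells, which held libraries 2 to 4. Whether each replicate was its own animal or culture is not stated, and p-values therefore measure only a spread between libraries that may be technical. In bulk samples a larger number of cells with an open site and a more open site in each cell cannot be told apart.

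The libraries held 8444350 to 20153816 reads in peaks. The Ptger2 promoter peak checked the genotype labels, at 559.8 to 1109 normalised counts in the 15 WT libraries and 83.6 to 247 in the 15 KO libraries. An exonic Ptger4 peak (chr15:5241955-5243110), named after its values were seen, was at 433.5 to 685.1 in WT and 56.2 to 152.3 in KO libraries. The other Ptger4 peaks, its promoter among them, overlapped between the genotypes. All 7 NK cell marker genes looked at had promoter peaks, whose summed level was 6107 to 8464 per library. In WT cells this sum was 7499 to 8464 at rest and 6312 to 7383 at rest with PGE2. Stimulated WT cells were at 6929 to 8063 without and 6107 to 7018 with PGE2. The KO groups overlapped one another, at 6386 to 6953, 6308 to 7993, 6590 to 7831 and 6528 to 7349 in the same order. All untreated resting KO libraries lay under all untreated resting WT ones. Of the B cell and T cell markers 0 of 5 and 0 of 6 had a promoter peak, while 2 of each had a peak of another class. Of 6 myeloid markers 5 had a peak of some class. Cd14 and Spi1 had promoter peaks, and their sum moved with the groups. In WT cells it was 813 to 902 at rest, 876 to 1036 at rest with PGE2, 611 to 656 when stimulated and 868 to 998 when stimulated with PGE2. In KO cells it was 759.8 to 841, 715 to 852, 564 to 633 and 586 to 669 in the same order. The part of either sum in the results was not tested.

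NF-κB proteins are dimers built from 5 subunits. Rela, Rel and Relb carry activation domains, while Nfkb1 and Nfkb2 encode the precursors p105 and p100, which are cut to p50 and p52. In resting cells the dimers are held in the cytoplasm by IκB proteins such as IκBα, the product of Nfkbia. Activating receptors lead to the phosphorylation and loss of IκBα, and dimers then enter the nucleus and bind κB sites. Several of the genes they switch on belong to the same pathway. They include the inhibitor genes Nfkbia itself and Tnfaip3, which encodes the ubiquitin-editing enzyme A20. They also include Nfkbid and Nfkbiz, which encode the nuclear IκB proteins IκBNS and IκBζ. In NK cells the pathway is known for its part in cytokine and chemokine production.

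RefSeq promoter sequence (GRCm38.p6) was at hand for 6 of the 9 genes, in 11 windows of 300 bases that end 50 bases after a start site. The 250 bases before the start are shown for 4 genes over whose starts a promoter peak opened with stimulation, and for Rela. The Rela promoter was also called higher, but it changed least in that comparison among those shown. Nfkbid, whose promoter peak opened too, is not shown. Each runs 5′ to 3′ on the gene's strand, with matches to the κB motif, and to AP-1 (TGANTCA), in capitals.
Nfkbia, chr12:55492648-55492897, minus strand: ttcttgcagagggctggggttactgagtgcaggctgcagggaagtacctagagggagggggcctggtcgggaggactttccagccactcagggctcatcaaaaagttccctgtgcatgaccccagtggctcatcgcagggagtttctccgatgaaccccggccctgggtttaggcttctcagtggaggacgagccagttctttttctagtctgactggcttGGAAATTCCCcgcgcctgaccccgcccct
Tnfaip3, chr10:19015411-19015660, minus strand: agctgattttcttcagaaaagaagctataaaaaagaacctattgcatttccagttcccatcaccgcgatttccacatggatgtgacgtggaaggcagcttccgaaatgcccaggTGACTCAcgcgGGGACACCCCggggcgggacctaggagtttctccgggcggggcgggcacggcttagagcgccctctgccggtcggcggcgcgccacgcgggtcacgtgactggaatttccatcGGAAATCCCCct
Rel, chr11:23770970-23771219, minus strand: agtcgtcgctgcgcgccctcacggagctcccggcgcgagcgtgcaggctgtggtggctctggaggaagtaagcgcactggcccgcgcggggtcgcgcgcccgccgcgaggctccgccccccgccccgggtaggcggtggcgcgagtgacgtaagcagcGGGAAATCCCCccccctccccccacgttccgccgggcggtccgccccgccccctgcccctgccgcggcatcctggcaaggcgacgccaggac
Nfkb2 (first of 3 starts), chr19:46304487-46304736, plus strand: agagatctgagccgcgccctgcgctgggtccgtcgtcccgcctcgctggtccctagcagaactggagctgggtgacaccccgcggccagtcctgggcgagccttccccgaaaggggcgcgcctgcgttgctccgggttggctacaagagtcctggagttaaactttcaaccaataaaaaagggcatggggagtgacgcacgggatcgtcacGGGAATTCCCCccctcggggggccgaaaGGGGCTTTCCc
Rela, chr19:5637291-5637540, plus strand: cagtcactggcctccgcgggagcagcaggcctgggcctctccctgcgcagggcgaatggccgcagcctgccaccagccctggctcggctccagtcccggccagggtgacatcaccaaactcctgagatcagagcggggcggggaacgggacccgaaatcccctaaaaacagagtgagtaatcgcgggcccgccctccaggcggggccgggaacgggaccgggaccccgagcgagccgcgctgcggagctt

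Both strands were searched for the κB motif, for the cAMP response element (CRE, TGACGTCA) and for AP-1. In Nfkbia the κB match GGAAATTCCC lay 29 to 20 bases before the start. Tnfaip3 had the κB matches GGGACACCCC, 125 to 116 bases before the start, and GGAAATCCCC, 12 to 3 bases before it, and the AP-1 match TGACTCA 136 to 130 bases before it. The capitals in Rel are 2 κB matches that overlap, shifted by 1 base, and the first capitals in Nfkb2 are another such pair. Rela held no match in this window. Of the 11 windows of these genes 7 held a κB match, and they belonged to 5 of the 6 genes. Over all 32851 RefSeq windows of the same 250 bases, 3.9% held a κB match, 1.55% a CRE and 6.75% an AP-1 match. The only CRE in these windows was in Nfkbid, at its second start, which was also the only start of that gene with a κB match. A match describes the letters only. Every window with a κB match lay inside an atlas peak.

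Anti-NK1.1 stimulation opened most of the 61 peaks in both genotypes. In untreated WT cells 46 of 61 were higher and 6 lower (limma, adjusted p under 0.05), or 85.2% called against 56.3% of all 38525 peaks tested (28.9% higher and 27.4% lower). In untreated KO cells 44 were higher and 6 lower, 82% against 54.5% of all peaks (28.1% higher and 26.4% lower). The median log2 change of the 61 was 0.88 in WT and 0.94 in KO cells, while that of all peaks was −0.02 and −0.03. The WT and KO libraries are separate, and 44 of the 46 peaks raised in WT were also raised in KO cells (95.7%, and 100% of the 44 raised in KO), where over all peaks the shares were 88% and 90.5%. No member was called for a difference between the genotypes in its stimulation effect, 0 at an unadjusted p under 0.05 as well. By limma 0.00779% of all peaks were called there (0.00519% higher and 0.0026% lower), and edgeR and DESeq2 called 0 members. Of the 8 promoter peaks, 7 were higher in WT, against 19.5% of all 12048 promoter peaks. Outside promoters 39 of 53 were higher and 6 lower in WT, 84.9% called against 63.2% of all such peaks (33.1% higher and 30% lower). In KO cells 81.1% of these 53 were called, against 60.6%.

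With PGE2 present from 1 h before the stimulation, accessibility was lower at many of these sites in stimulated WT cells and higher at few. Wherever PGE2 is called added below, it was likewise there before the stimulation. Closing of sites that stimulation had already opened was not measured. In stimulated WT cells 31 of 61 were lower and 8 higher with PGE2, 63.9% called against 40.5% of all peaks, of which 20.4% were lower and 20.2% higher. The median log2 change was −0.44, against −0.01 over all peaks. Among the promoters 5 of 8 were lower, those of Nfkb1, Rel, Nfkbia, Nfkbid and Nfkbiz, against 19.9% of all promoter peaks. Outside promoters 26 of 53 were lower and 8 higher, 64.2% called against 46.7% of all such peaks (20.6% lower and 26.1% higher). The comparisons with stimulation and with PGE2 share the untreated stimulated WT libraries, so a count set against stimulation was taken from KO cells, which share none. Of the 44 peaks raised by stimulation in KO cells, 30 were lower with PGE2 in stimulated WT cells (68.2%), against 56.8% of all peaks raised in KO cells. Those 30 made up 96.8% of the 31 lowered members, and the same share over all peaks was 78.3%.

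With the replicate number as a block, 34 members were lower and 10 higher with PGE2 in stimulated WT cells. Same-numbered libraries of this comparison deviated together. The block was shared by all 8 groups, though, and in some other comparisons same-numbered libraries did not. The 5 added were the Rela promoter (log2 change −0.20, adjusted p = 0.0459), an Nfkb1 exon peak (0.24, 0.0432), 2 Tnfaip3 intergenic peaks (−0.46, 0.0211, and −0.41, 0.0481) and an Nfkbiz intergenic peak (0.45, 0.0367).

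In resting WT cells PGE2 changed fewer of the 61 peaks, and nearly all of those in the other direction. By limma 15 were higher and 1 lower, 26.2% called against 14.9% of all peaks, of which 10.9% were higher and 4.03% lower. Of the 53 members outside promoters 28.3% were called, against 19.5% of all such peaks (14.8% higher and 4.74% lower). The 15 belonged to 3 genes: 8 of the 16 Tnfaip3 peaks rose, by 0.54 to 2.04 on the log2 scale, 4 of the 17 Nfkb1 peaks by 0.33 to 0.90, and 3 of the 11 Nfkbiz peaks by 0.60 to 0.83. The 1 lower peak was the intergenic Rel peak nearer to Papolg, at −0.41. Of these 16 calls 6 were lost when one or another of the 7 resting WT libraries was left out (adjusted p 0.051 to 0.22): that Rel peak, 1 exonic peak of Nfkb1, and 2 intergenic peaks each of Nfkbiz and Tnfaip3. Of the 15 raised peaks 12 (80%) were raised by stimulation in KO cells, which share no library with them, against 59.1% over all peaks. Most members rose there in any case, 44 of all 61.

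**Figure D1:**
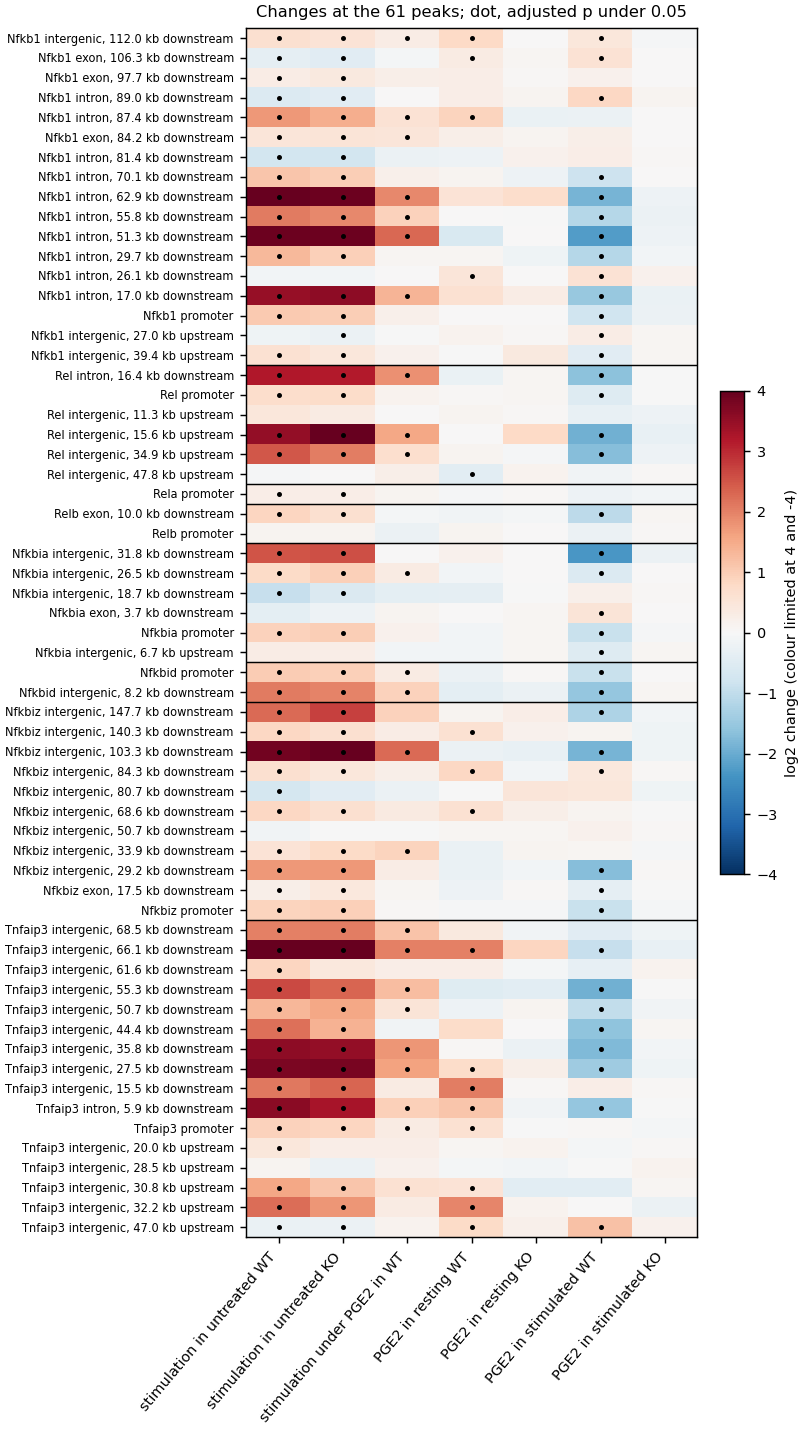
Heat map of the log2 change at each of the 61 peaks (rows, grouped by gene) in 7 comparisons (columns), with red for higher, blue for lower, colours limited at −4 and 4, and a dot where the limma adjusted p was under 0.05. The stimulation columns hold 46 higher peaks in WT and 44 in KO cells, the column for PGE2 in stimulated WT cells 31 lower peaks, and the 2 columns for PGE2 in KO cells no dot.

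Nfkb1, which encodes p105 and p50, spans chr3:135584655-135691969 on the minus strand (mm10). With stimulation 12 of its 17 peaks rose and 3 fell in WT cells. The promoter peak (chr3:135690125-135692231) held 439.7, 478, 322 and 382 normalised counts in the 4 untreated resting WT libraries, 800.4, 650.5, 1000 and 891 after stimulation and 441, 386, 591 and 492 after stimulation with PGE2. Stimulated libraries lay above all resting ones, and those with PGE2 overlapped the resting range and stayed under every stimulated library without it. Group means were 406 ± 68.2 (SD, n = 4), 836 ± 148 (SD, n = 4) and 478 ± 87.1 (SD, n = 4). The log2 change was 1.04 ± 0.16 (SE, limma adjusted p = 6.62e-07) with stimulation and −0.81 ± 0.16 (SE, adjusted p = 8.58e-05) with PGE2 in stimulated cells. In the 4 stimulated KO libraries the promoter was at 602, 669, 926 and 910.1, and with PGE2 at 541, 502, 914 and 751. Those ranges overlapped, though each library with PGE2 was lower than the same-numbered one without it. The PGE2 change there was −0.22 (95% interval −0.54 to 0.11, no block). With the replicate number as a block, PGE2 in stimulated KO cells still called 0 members.

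The widest changes in Nfkb1 were inside the gene. A peak in an intron 51.3 kb from the start (chr3:135640010-135641405) held 18.8, 36, 52 and 41.8 counts in resting WT libraries, 599, 470.3, 557 and 537 in stimulated ones and 123, 107, 119 and 108 in stimulated ones with PGE2. The 3 groups did not overlap, and PGE2 left the site above rest and well under stimulation alone. Stimulation changed it by 3.91 ± 0.23 on the log2 scale (SE, adjusted p = 3.83e-17) and PGE2 in stimulated cells by −2.23 ± 0.23 (SE, adjusted p = 6.13e-10). In KO cells the same site went from 21.1, 47.1 and 38.7 at rest to 623, 418, 553 and 519 with stimulation, and was at 479.5, 329.5, 564 and 465 with stimulation and PGE2. PGE2 in resting WT cells gave 20.9, 19.2 and 28.4, a change of −0.61 that did not pass (adjusted p = 0.0959). It passed without library 1 of untreated resting WT cells (−0.90, adjusted p = 0.00612).

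A second intronic peak, 62.9 kb from the start (chr3:135628562-135629486), changed most with stimulation among the Nfkb1 peaks. It rose from 10.2, 8.75, 16.7 and 8.36 to 244, 206, 218 and 260.3 in WT libraries, and stood at 84.5, 75.9, 65.2 and 37.4 with PGE2. The log2 changes were 4.32 ± 0.24 (SE, adjusted p = 1.06e-17) and −1.86 ± 0.24 (SE, adjusted p = 8.4e-08), again with 3 groups that did not overlap. In KO cells its means were 15 ± 5.01 at rest (SD, n = 3), 236 ± 29.6 when stimulated and 209 ± 59.5 when stimulated with PGE2 (SD, n = 4 each).

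Other Nfkb1 sites went the other way with PGE2. Of its 17 peaks 8 were lower and 5 higher with PGE2 in stimulated WT cells. An intronic peak 89.0 kb from the start (chr3:135602284-135603580), named after its values were seen, closed with stimulation, from 417, 441, 445 and 355 to 306, 329, 240.2 and 266, and was at 523, 479, 516 and 499 with PGE2. Its changes were −0.54 ± 0.09 (SE, adjusted p = 3.26e-06) and 0.83 ± 0.09 (SE, adjusted p = 2.36e-09). The intergenic peak past the gene's end, 112.0 kb from the start (chr3:135578951-135581054), also named after its values were seen, was opened by either agent. It held 568, 610.3, 551 and 559 in untreated resting WT libraries, 987, 1021 and 976 at rest with PGE2, 930, 732, 928 and 996 when stimulated and 1348, 1181, 1230 and 1107 with both. Every library with PGE2 at rest lay above every untreated resting one, by 0.80 ± 0.10 in log2 units (SE, adjusted p = 1.64e-07). The map by distance shows these Nfkb1 sites side by side.

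**Figure D2:**
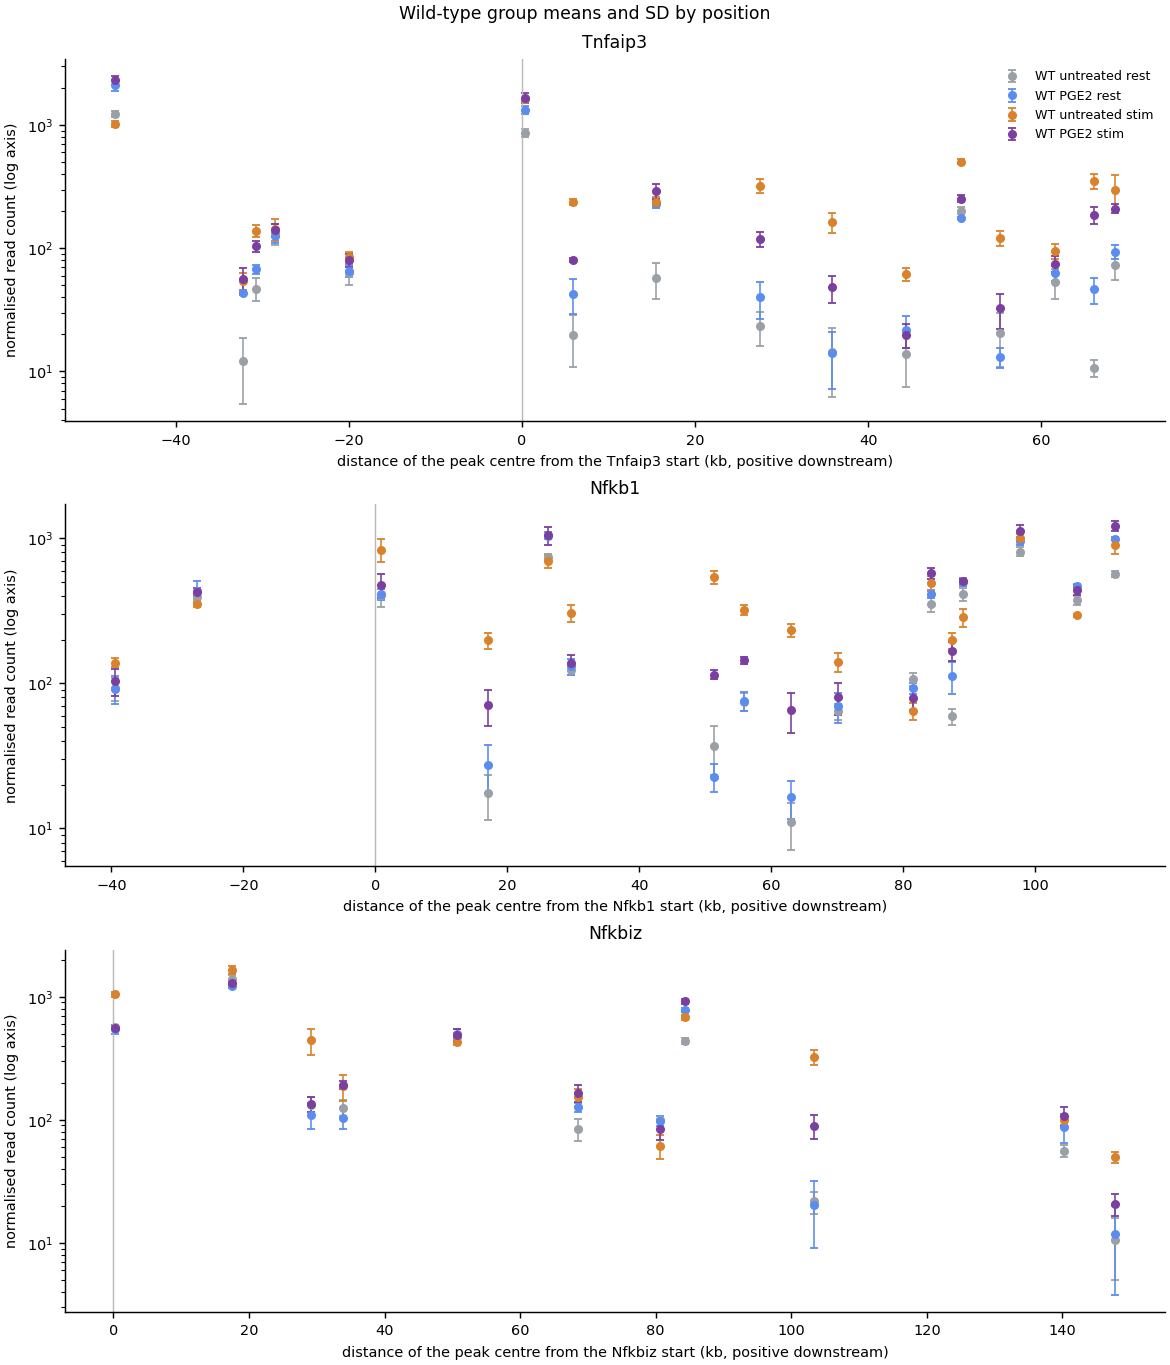
Group means with SD (normalised counts, log axis) of the peaks of Tnfaip3, Nfkb1 and Nfkbiz in the 4 WT groups, against the distance of the peak's centre from the gene's start in kb. At the Nfkb1 intron peak 51.3 kb from the start the stimulated mean is 541 and that with PGE2 added 115, while at the Tnfaip3 peak 47.0 kb upstream the order is the other way, 1022 and 2328.

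Nfkb2, which encodes p100 and p52, spans chr19:46300994-46312400, and no peak carries its name. A promoter peak that the atlas assigns to 4833438C02Rik (chr19:46304074-46306320) covers all 3 Nfkb2 starts for which a window was at hand, so its reads cannot be divided between the 2 genes. It is given here after its values were seen. In WT libraries it held 1862 to 1976 counts at rest, 3932 to 4292 when stimulated and 2450 to 2599 when stimulated with PGE2, so the groups did not overlap. The means were 1938 ± 51.5, 4081 ± 153 and 2514 ± 62 (SD, n = 4 each), with log2 changes of 1.07 ± 0.08 (SE, adjusted p = 3.1e-14) for stimulation and −0.70 ± 0.08 (SE, adjusted p = 6.05e-09) for PGE2. Stimulated KO libraries were at 3251 to 4465 without and 3295 to 4095 with PGE2.

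Rel encodes c-Rel and spans chr11:23736847-23770969 on the minus strand. Its promoter peak (chr11:23769604-23771950) contains the sequence shown above. WT libraries held 2362, 2352, 2297 and 2244 counts at rest, 4043, 3859, 3504 and 3640 when stimulated and 2698, 2807, 2625 and 2462 when stimulated with PGE2. No stimulated library overlapped either other group, and all 4 with PGE2 lay above the resting ones by a little. Stimulation changed the promoter by 0.70 ± 0.09 (log2, SE, adjusted p = 2.67e-08) and PGE2 during it by −0.51 ± 0.09 (SE, adjusted p = 2.26e-05). At rest PGE2 gave 2272, 2663 and 2261, a change of 0.05 (95% interval −0.15 to 0.25). Stimulated KO libraries were at 4275, 3723, 3043 and 3055 without PGE2 and 3742, 3769, 3005 and 3197 with it, which overlapped.

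A weak Rel peak 15.6 kb upstream of the start (chr11:23786083-23786963) had the widest relative changes of this gene. It went from 4.71, 18.5, 12.8 and 19.1 in resting WT libraries to 148, 132, 186 and 135 in stimulated ones, and to 34.8, 46.9, 41.8 and 33.6 with PGE2 added. The log2 changes were 3.50 ± 0.37 (SE, adjusted p = 3.36e-10) and −1.91 ± 0.37 (SE, adjusted p = 7.88e-05), on a scale of log2(count + 1) that understates changes at such low counts. Over its 6 peaks Rel had 4 that rose with stimulation and 4 that fell with PGE2 in stimulated WT cells.

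Rela encodes p65, the most widely used activating subunit, and spans chr19:5637442-5648134. Its 1 peak, the promoter (chr19:5636632-5638289), moved little. WT libraries were at 859.7, 850.4, 739 and 742 at rest, 837, 936, 1016 and 1010 when stimulated and 825, 763, 846 and 866 when stimulated with PGE2, and all 3 groups overlapped. The stimulation change of 0.25 ± 0.08 (SE) passed the test (adjusted p = 0.011). That in KO cells (0.26, adjusted p = 0.0172) did too, but not without library 3 or 4 of untreated resting KO cells (0.0511 and 0.183) or library 4 of untreated stimulated KO cells (0.0512), nor within the 2 groups alone (0.0543). The PGE2 change in stimulated WT cells was −0.20 ± 0.08 (SE, adjusted p = 0.0555), with a 95% interval of −0.37 to −0.03. It passed with the block, with edgeR (0.0483), with DESeq2 (0.0434), within the 2 groups alone (0.0267) and without library 1 of untreated stimulated WT cells (0.0196).

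Relb, the subunit that pairs with p52 in the alternative pathway, spans chr7:19606217-19629438 on the minus strand. Its promoter peak (chr7:19628181-19629965) was at 2186, 2167, 2198 and 2152 in resting WT libraries, 2391, 2345, 2306 and 2411 in stimulated ones and 1914, 2121, 2024 and 2081 with PGE2 added. Library 3 of resting WT cells with PGE2 stood apart there, at 3331 beside 1956 and 2021. The stimulation change was 0.12 (95% interval −0.09 to 0.33) and that with PGE2 −0.22 (−0.42 to −0.01), and neither passed, although the 3 groups did not overlap. With the fit limited to the 2 groups compared, both passed (adjusted p = 0.04 and 0.00124). Relb's exonic peak, 10.0 kb from the start (chr7:19618936-19620018), did change. It went from 96.6, 111, 69.7 and 100.3 at rest to 188, 139.6, 174 and 176 with stimulation. With stimulation and PGE2 it was at 99.4, 72.5, 81.5 and 72.9. The changes were 0.85 ± 0.19 (SE, adjusted p = 0.000181) and −1.05 ± 0.19 (SE, adjusted p = 1.94e-05), with the stimulated group apart from both others.

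**Figure D3:**
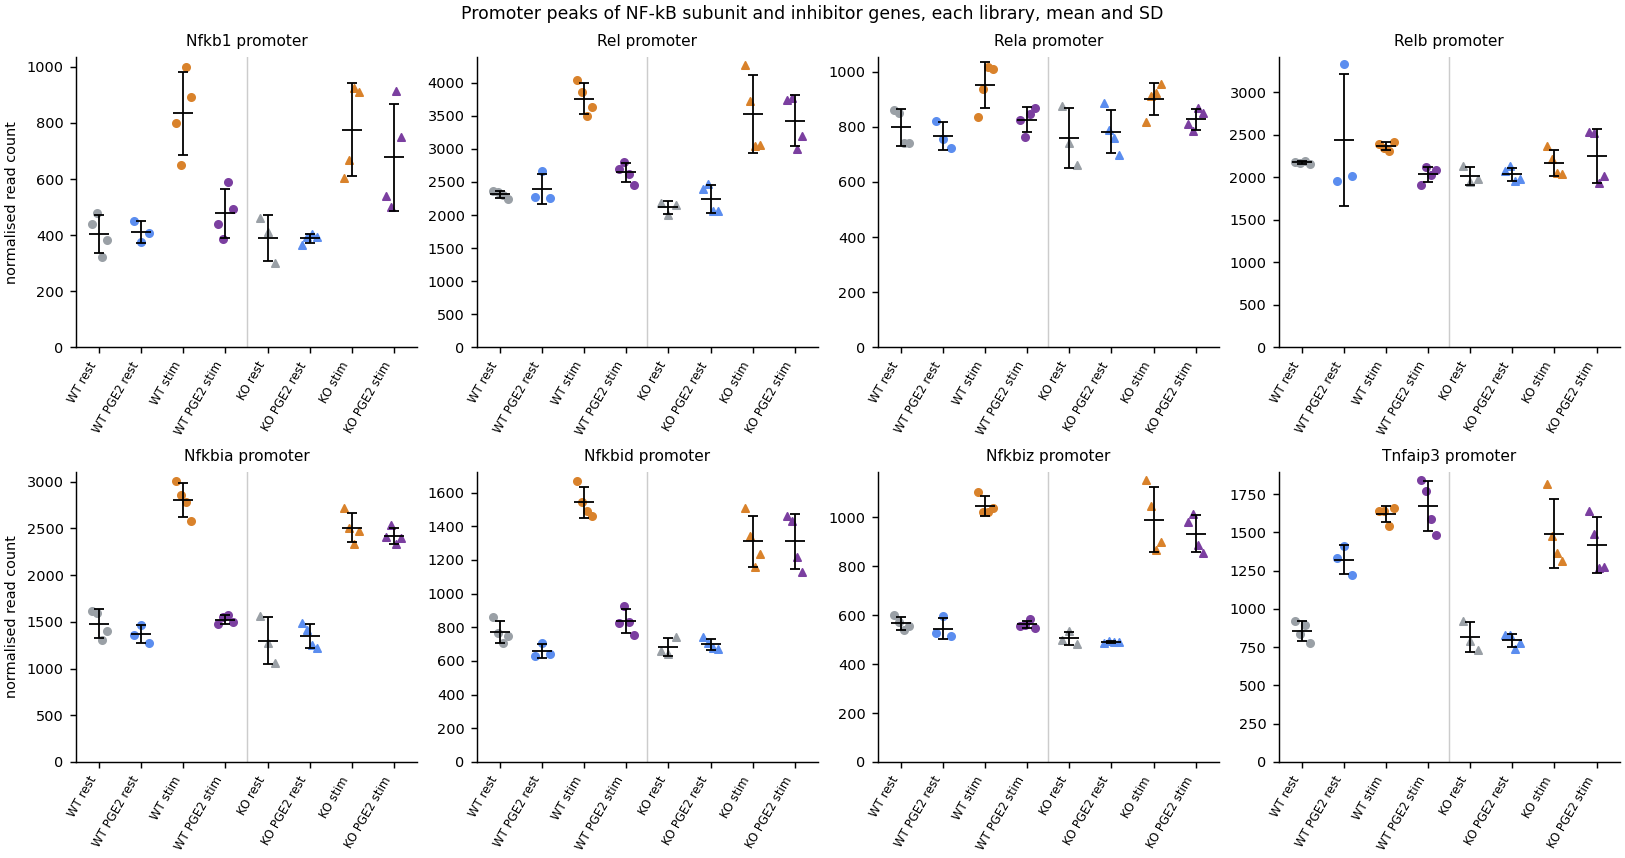
Normalised counts (linear axis) of the 8 promoter peaks in each of the 30 libraries, by group, with the group mean and SD. Nfkbia, Nfkbid and Nfkbiz stand high in stimulated cells except where WT cells had PGE2, Tnfaip3 is also high at rest with PGE2 in WT cells (1321 ± 95.4), and Relb shows 1 library at 3331.

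Nfkbia, the gene of IκBα, spans chr12:55489409-55492647 on the minus strand, and its promoter peak (chr12:55491260-55493082) contains the κB match shown above. WT libraries held 1621, 1597, 1301 and 1400 counts at rest, 3009, 2858, 2783 and 2577 when stimulated and 1473, 1548, 1576 and 1498 when stimulated with PGE2. The stimulated libraries stood apart, and those with PGE2 fell within the resting range. Stimulation changed the promoter by 0.93 ± 0.09 (log2, SE, adjusted p = 1.67e-11), and PGE2 during it by −0.88 ± 0.09 (SE, adjusted p = 3.04e-10). Among PGE2-treated WT cells the change with stimulation was 0.16 (95% interval −0.03 to 0.35, adjusted p = 0.277). In KO cells the promoter went from 1560, 1273 and 1056 at rest to 2719, 2505, 2336 and 2472 when stimulated, and to 2405, 2541, 2334 and 2395 when stimulated with PGE2. The last pair of groups overlapped, with a change of −0.05 (95% interval −0.23 to 0.13).

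A small intergenic peak 31.8 kb past the Nfkbia start (chr12:55460568-55461194) changed more widely and in the same order. WT libraries held 11.8, 21.4, 19.6 and 17.9 at rest, 97.2, 86.7, 121 and 108 when stimulated and 20.9, 12.3, 29.6 and 19.6 when stimulated with PGE2. The resting range and that with PGE2 overlapped, and no stimulated library came near either. The log2 changes were 2.50 ± 0.23 (SE, adjusted p = 1.03e-11) and −2.32 ± 0.23 (SE, adjusted p = 3.12e-10), and stimulation in the presence of PGE2 gave 0.02 (95% interval −0.49 to 0.53). In stimulated KO cells it held 118, 115, 108 and 113 without and 82.5, 85.5, 113 and 103 with PGE2. Of the 6 Nfkbia peaks 3 rose and 1 fell with stimulation in WT cells, and 4 fell and 1 rose with PGE2 in stimulated WT cells.

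Nfkbid, the gene of IκBNS, spans chr7:30421731-30428749, and both of its peaks rose with stimulation and fell with PGE2 in stimulated WT cells. The promoter (chr7:30421370-30423583) held 863, 765, 708 and 749 in resting WT libraries, 1671, 1542, 1493 and 1459 in stimulated ones and 827, 928, 830.5 and 756 with PGE2 added. Every stimulated library was above every other WT library, and the PGE2 range overlapped that at rest. The changes were 1.00 ± 0.09 (SE, adjusted p = 1.42e-12) and −0.88 ± 0.09 (SE, adjusted p = 1.62e-10). The peak just past the gene, 8.2 kb from the start (chr7:30428952-30430971), rose from 66, 70.9, 108 and 74 to 369, 331, 376 and 267 and was at 117, 130.5, 116 and 93.5 with PGE2, changes of 2.08 ± 0.20 (SE) and −1.54 ± 0.20 (SE, adjusted p = 6.08e-08). In stimulated KO cells the promoter mean was 1310.3 ± 151 without and 1310.2 ± 162 with PGE2 (SD, n = 4 each), a log2 difference of 0.00 (95% interval −0.18 to 0.17).

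Nfkbiz, the gene of IκBζ, spans chr16:55811375-55838954 on the minus strand, with 9 of its 11 peaks higher and 1 lower after stimulation in WT cells. Its promoter (chr16:55837915-55839465) gave 601, 572, 538 and 556 in resting WT libraries, 1105, 1021, 1023 and 1038 in stimulated ones and 558, 559, 583 and 549 with PGE2 added. With PGE2 the stimulated libraries fell within the resting range. The changes were 0.88 ± 0.08 (SE, adjusted p = 1.82e-12) and −0.90 ± 0.08 (SE, adjusted p = 8.07e-12), and stimulation in PGE2 gave 0.05 (95% interval −0.12 to 0.21). In stimulated KO cells the libraries were at 1153, 1045, 867 and 899 without PGE2 and 979, 1014, 885 and 854 with it.

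Away from the Nfkbiz promoter the sites divided. An intergenic peak 103.3 kb past the start (chr16:55735143-55736143) went from 22, 26.2, 15.7 and 22.7 at rest to 305, 271, 373 and 357 with stimulation and to 80.5, 80.3, 79.5 and 119 with PGE2 added. It changed by 3.86 ± 0.28 (SE, adjusted p = 2e-14) and −1.86 ± 0.28 (SE, adjusted p = 1.5e-06), with 3 separate groups. A peak 84.3 kb past the start (chr16:55754044-55755265), named after its values were seen, was instead highest with both agents. It held 418, 452, 423 and 459.8 in untreated resting WT libraries, 800.5, 750.3 and 794 with PGE2 at rest, 719.5, 644, 698 and 677 with stimulation and 963, 953, 871 and 903 with both. PGE2 raised it by 0.83 ± 0.09 at rest (SE, adjusted p = 6.94e-09) and by 0.43 ± 0.08 in stimulated cells (SE, adjusted p = 6.93e-05).

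Tnfaip3, the gene of A20, spans chr10:19000910-19015410 on the minus strand, and 14 of its 16 peaks rose and 1 fell with stimulation in WT cells. Its promoter (chr10:19014260-19015799), with 2 κB matches and 1 AP-1 match in the sequence shown above, was raised by PGE2 alone as well as by stimulation. WT libraries held 922, 835, 897 and 779 at rest, 1333, 1410 and 1220 at rest with PGE2, 1643, 1640, 1539 and 1660 when stimulated and 1841, 1769, 1591 and 1484 when stimulated with PGE2. The resting libraries with PGE2 lay between the untreated resting and the stimulated ones without overlap, and the 2 stimulated groups overlapped. PGE2 at rest changed the promoter by 0.62 ± 0.10 (SE, adjusted p = 1.26e-05), stimulation by 0.92 ± 0.09 (SE, adjusted p = 7.51e-11), and PGE2 in stimulated cells by 0.04 (95% interval −0.15 to 0.23, adjusted p = 0.766). Stimulation in the presence of PGE2 gave 0.34 (adjusted p = 0.0158), a call lost without library 4 of resting WT cells with PGE2 (0.105) or library 1 or 2 of stimulated WT cells with PGE2 (0.0682 and 0.0501). Whether the Tnfaip3 promoter differs from the other promoters in its PGE2 effect was not tested.

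In KO cells the Tnfaip3 promoter rose with stimulation, by 0.87 ± 0.10 (log2, SE, adjusted p = 2.28e-09), and was not called with PGE2. It held 922, 793 and 731 at rest, 827, 830, 739.6 and 780.5 at rest with PGE2, 1817, 1478, 1365 and 1311 when stimulated and 1643, 1488, 1266 and 1275 when stimulated with PGE2. Both PGE2 pairs overlapped, and the resting PGE2 effect differed between the genotypes by 0.65 ± 0.14 (WT minus KO, SE, adjusted p = 0.00223).

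Of the 16 Tnfaip3 peaks, 3 were higher with PGE2 at rest and lower with it in stimulated WT cells. Another 4 were called only as higher at rest, 4 only as lower in stimulated cells, and 1 was higher in both. The site that opened most with stimulation, 66.1 kb past the start (chr10:18948850-18949687), was also raised by PGE2 at rest. WT libraries held 8.64, 10.7, 12.8 and 10.8 at rest, 52.2, 53 and 33.7 at rest with PGE2, 324, 301, 392 and 398 when stimulated and 222, 205, 163 and 163 with both. The 4 groups did not overlap, so PGE2 raised the site in resting cells (2.0 ± 0.25, SE, adjusted p = 1.85e-07) and lowered it in stimulated ones (−0.91 ± 0.23, SE, adjusted p = 0.00189). The difference between these 2 effects was −2.91 ± 0.35 (SE, adjusted p = 9.64e-08). Stimulation alone changed it by 4.92 ± 0.23 (SE, adjusted p = 1.13e-19).

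In resting KO cells that site held 6.04, 25.2 and 15.9 without and 30.4, 23.2, 23.5 and 26.4 with PGE2, a change of 0.87 ± 0.25 (SE, 95% interval 0.36 to 1.38, adjusted p = 1). The lowest of these libraries was replicate 2 of untreated resting KO cells, which stood apart from the other 29 on the fifth principal component of all peaks. The difference between genotypes in the resting PGE2 effect, 1.13, did not pass (adjusted p = 0.0528). It passed under 7 of the alternatives (adjusted p 0.000195 to 0.0446), among them edgeR (0.0183) and DESeq2 (0.00366), and was 1.65 without that library.

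A site 55.3 kb past the start (chr10:18959706-18960503) was lowered by PGE2 in stimulated cells. It went from 14.9, 9.72, 28.5 and 28.7 at rest to 145, 108, 110.2 and 122 with stimulation and 32.8, 26.8, 46.9 and 23.4 with PGE2 added, and the last group overlapped rest. The changes were 2.63 ± 0.27 (SE) and −1.91 ± 0.27 (SE, adjusted p = 3.88e-07). An intronic peak 5.9 kb from the start (chr10:19009238-19009756), named after its values were seen, was at 251, 218, 235 and 248 when stimulated and 81.5, 84.8, 77.5 and 78.5 with PGE2 added, a change of −1.55 ± 0.21 (SE, adjusted p = 2.26e-07). At rest PGE2 had the opposite effect there, from 16.5, 33, 16.7 and 13.1 to 40.7, 56.7 and 30.1, a change of 1.1 ± 0.23 (SE, adjusted p = 0.000537) between groups that overlapped.

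Just past the gene's end, 15.5 kb from the start (chr10:18998997-19000724), PGE2 alone raised a site to about its stimulated level. This peak, named after its values were seen, had the largest resting PGE2 change of the 61. It held 62, 39.9, 45.2 and 81.2 in untreated resting WT libraries, 231, 245 and 211 with PGE2, 262, 213, 247 and 233 with stimulation and 334, 310.1, 286 and 239 with both. Untreated resting libraries were the lowest, and the other 3 groups overlapped one another in part. The resting change was 2.04 ± 0.18 (SE, adjusted p = 8.67e-11), and that in stimulated cells 0.28 (95% interval −0.06 to 0.63). In resting KO cells the site was at 45.3, 53 and 52.4 without and 55, 34.2, 67 and 56.2 with PGE2. The genotypes differed in this effect by 1.99 ± 0.26 (SE, adjusted p = 1.58e-06).

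A Tnfaip3 peak 47.0 kb upstream of the start (chr10:19061564-19063350), named after its values were seen, rose with PGE2 in both states and fell slightly with stimulation. It held 1292, 1273, 1205 and 1154 at rest, 2292, 2146 and 1869 at rest with PGE2, 1056, 984, 976 and 1073 when stimulated and 2560, 2395, 2263 and 2092 with both. Every WT library with PGE2 lay above every one without it. PGE2 changed it by 0.77 ± 0.10 at rest (SE, adjusted p = 1.27e-07) and by 1.18 ± 0.09 in stimulated cells (SE, adjusted p = 3.44e-13), while stimulation alone gave −0.27 ± 0.09 (SE, adjusted p = 0.01). It was the 1 Tnfaip3 peak that PGE2 raised in stimulated WT cells, where 7 others were lower. In KO cells the libraries held 1024, 893 and 1082 at rest and 1389, 1229, 976 and 1041 with PGE2, 826, 809, 811 and 932 when stimulated and 1027, 889, 894 and 985 with both. The WT effect exceeded the KO effect by 0.56 ± 0.14 at rest (SE, adjusted p = 0.00637) and by 1.02 ± 0.13 in stimulated cells (SE, adjusted p = 1.98e-07).

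**Figure D4:**
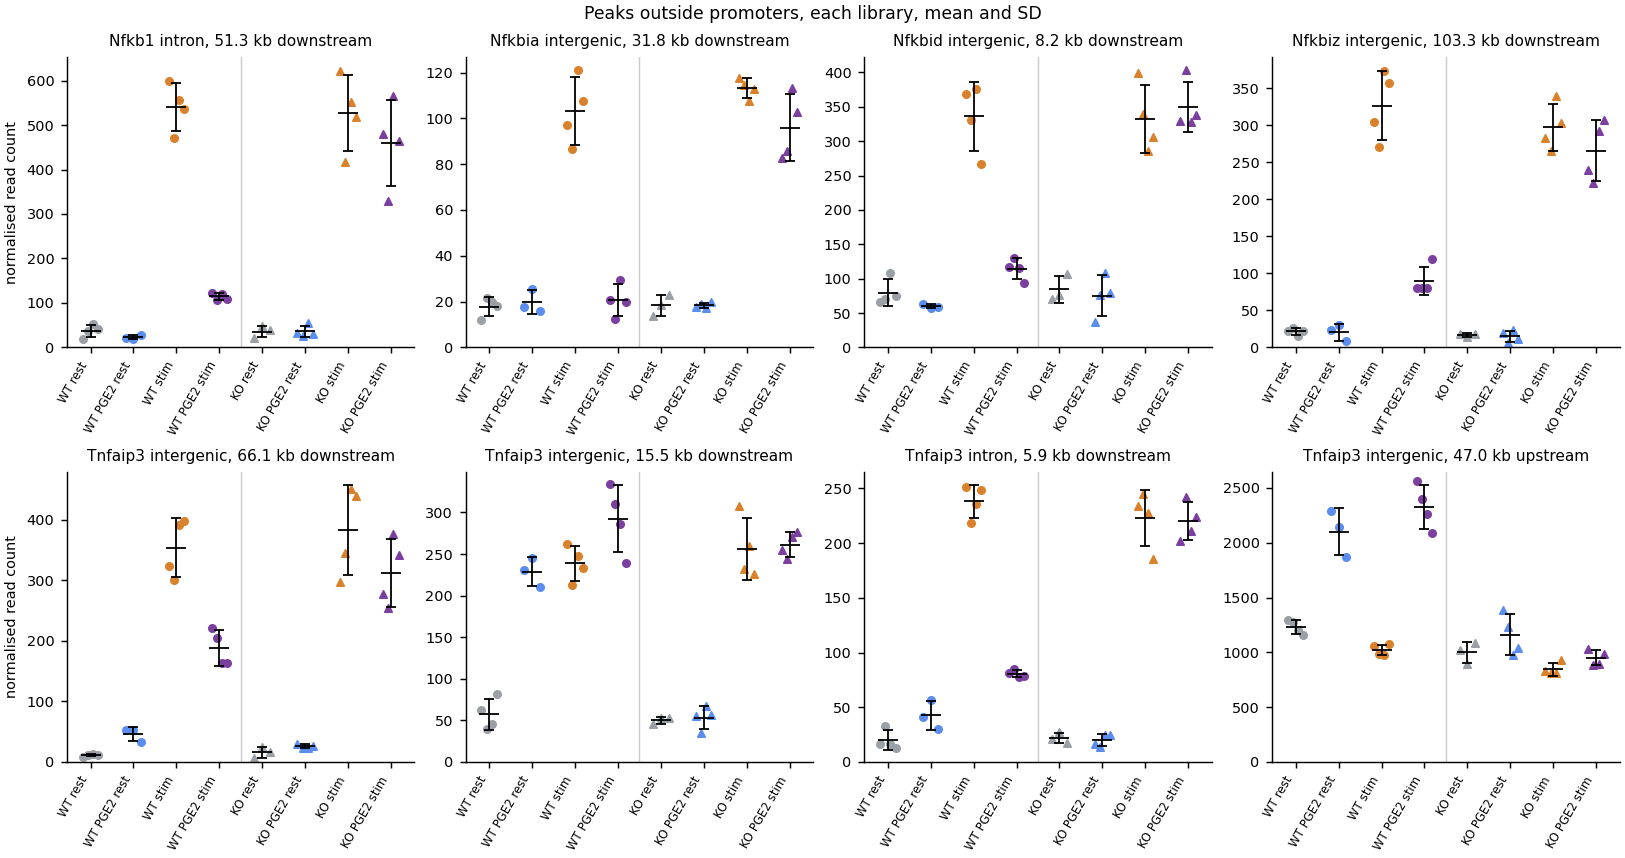
Normalised counts (linear axis) of 8 peaks outside promoters in each of the 30 libraries, by group, with the group mean and SD. The Nfkb1, Nfkbia, Nfkbid and Nfkbiz peaks are high in stimulated cells of both genotypes and lower where WT cells also had PGE2, and the Tnfaip3 peak 47.0 kb upstream is highest in WT cells with PGE2, at 1869 to 2560.

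Stimulation in the continued presence of PGE2 still opened part of these sites in WT cells. By limma 24 of 61 were higher and 0 lower, 39.3% called against 16.5% of all peaks (12.7% higher and 3.8% lower), and the median log2 change was 0.28 against −0.02 over all peaks. The Nfkb1 intron peak 51.3 kb from the start rose by 2.30 (adjusted p = 6.15e-09), the Nfkbiz peak 103.3 kb past its start by 2.25 (adjusted p = 6.33e-07) and the Tnfaip3 peak 66.1 kb past its start by 2.02 (adjusted p = 1.48e-07). Among promoters that of Nfkbid rose (0.34, adjusted p = 0.00773), as did that of Tnfaip3, with the limit given above. The promoters of Nfkb1 (0.20) and Rel (0.15) did not pass, like those of Nfkbia and Nfkbiz. The interaction itself, the PGE2 effect in stimulated minus that in resting WT cells, was negative at 34 of 61 peaks and positive at 3, 60.7% called against 25.3% of all peaks (14.7% negative and 10.6% positive). Of the 53 members outside promoters 41.5% were called for stimulation under PGE2 and 58.5% for the interaction. The shares over all peaks outside promoters were 19.9% and 30.8%.

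In cells without EP2 and with the EP4 gene targeted, PGE2 called 0 of the 61 peaks at rest and 0 when stimulated. At rest 6 had an unadjusted p under 0.05, 0% of all peaks were called, and log2 changes ran from −0.42 to 0.87. In stimulated cells 1 had an unadjusted p under 0.05, 0.0026% of all peaks were called, and changes ran from −0.30 to 0.18. edgeR and DESeq2 also called 0 members in both. The 95% intervals reached from −1.03 to 1.62 at rest and from −1.05 to 0.78 when stimulated, and these bounds leave room for sizeable changes at the weakest peaks. The effect in WT minus that in KO cells was tested directly. In stimulated cells it was negative at 25 peaks and positive at 6, 50.8% called against 20% of all peaks (9.8% negative and 10.2% positive). At rest it was positive at 10 and negative at 0, 16.4% against 6.18% of all peaks (4.94% positive and 1.24% negative). Of the 53 members outside promoters 50.9% were called when stimulated and 17% at rest, against 24.4% and 8.35% of all such peaks.

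For the promoters of the IκB genes the stimulated difference was −0.83 ± 0.12 at Nfkbia (SE, adjusted p = 6.12e-06), −0.88 ± 0.12 at Nfkbid (SE, adjusted p = 1.39e-06) and −0.81 ± 0.11 at Nfkbiz (SE, adjusted p = 7.52e-07). At the Rel promoter it was −0.47 ± 0.13 (SE, adjusted p = 0.00703), and at the Nfkb1 intron peak 51.3 kb from the start −2.02 ± 0.32 (SE, adjusted p = 1.84e-05). At the Nfkb1 promoter, −0.59, it did not pass (adjusted p = 0.0599), though it did in 8 of the alternatives, at 0.0185 to 0.0386. At the weak Rel peak 15.6 kb upstream it passed (−1.61, adjusted p = 0.0267), but not without library 3 of untreated stimulated WT cells (0.0581), library 2 of untreated stimulated KO cells (0.068) or library 3 of stimulated KO cells with PGE2 (0.0638).

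Between the genotypes without PGE2, 0 of 61 peaks were called at rest and 0 when stimulated, against 1.73% of all peaks at rest (1.09% higher and 0.636% lower) and 0.724% when stimulated (0.379% higher and 0.345% lower). At an unadjusted p under 0.05 there were 7 and 3, and edgeR and DESeq2 called 0. Without library 2 of untreated resting KO cells 2 peaks were called at rest, the Nfkbia promoter (−0.35, adjusted p = 0.0452) and the Tnfaip3 peak 66.1 kb past its start (0.86, adjusted p = 0.0303).

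**Figure D5:**
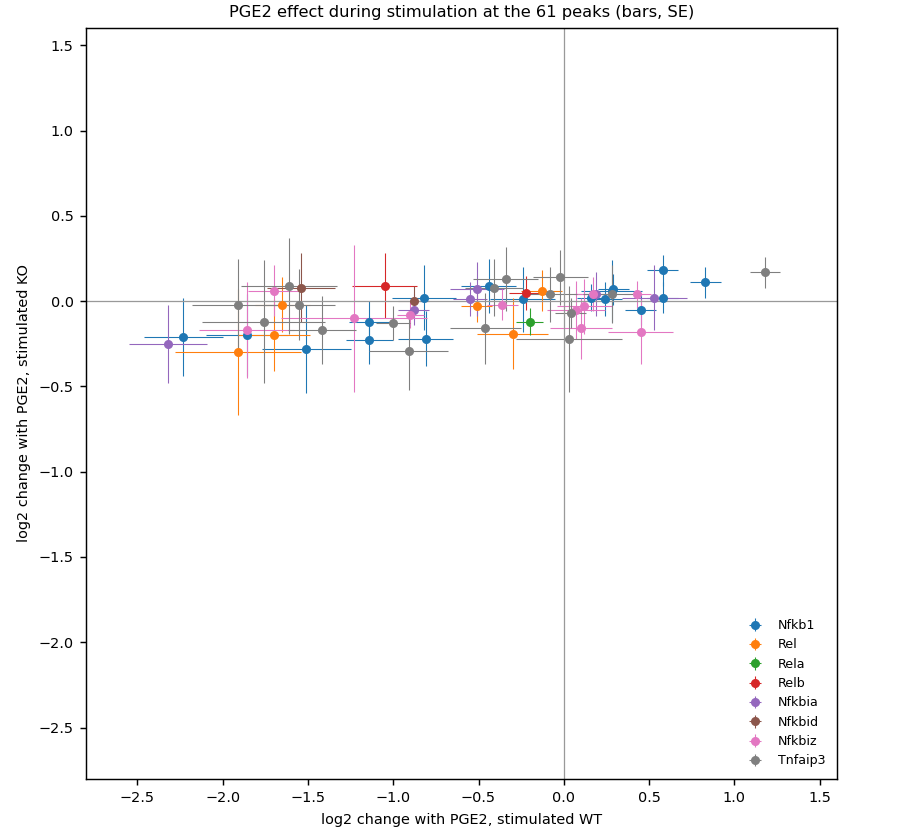
Log2 change with PGE2 in stimulated WT cells (x axis) against that in stimulated KO cells (y axis) for the 61 peaks, with SE bars; the 2 axes share no library. The KO changes lie between −0.30 and 0.18 while the WT changes reach −2.32 at the Nfkbia intergenic peak and 1.18 at the Tnfaip3 peak 47.0 kb upstream.

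The other genes of the pathway were read from lists. Of 118 peaks of 23 genes for receptor-proximal adaptors and kinases, stimulation raised 39 and lowered 26 in WT cells (55.1% called, median 0.06), and PGE2 in stimulated WT cells lowered 34 and raised 23 (48.3%, median −0.11). Of 59 peaks of 16 genes for other IκB proteins and inhibitors, 26 rose and 11 fell with stimulation (62.7%, median 0.18), and 17 fell and 11 rose with PGE2 (47.5%, median −0.09). Of 68 peaks of 20 genes known as NF-κB targets, 55 rose and 4 fell with stimulation (86.8%, median 1.17), and 58 fell and 0 rose with PGE2 (85.3%, median −0.83). The background for these counts is 56.3% of all peaks for stimulation and 40.5% for PGE2, with medians of −0.02 and −0.01. At rest PGE2 raised 13 and lowered 10 peaks of the first list (19.5% called), raised 10 and lowered 6 of the second (27.1%), and raised 7 and lowered 15 of the third (32.4%), against 14.9% of all peaks (10.9% higher and 4.03% lower). In KO cells PGE2 called 0 peaks of these lists.

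Some of the list genes with the smallest p for PGE2 in stimulated WT cells are described by their WT means. An exonic peak of Nfkbie, the gene of IκBε, had WT means of 358 ± 27.6 at rest, 337 ± 18 at rest with PGE2, 1154 ± 87.2 when stimulated and 398 ± 40 with both, so PGE2 changed it by −1.54 in stimulated cells (adjusted p = 1.68e-14). An intergenic peak of Traf1, a signalling adaptor that stands in the list of adaptors and in that of targets, had means of 569.8, 461, 1276 and 564 in the same order (PGE2 change −1.17, adjusted p = 1.49e-13). The Ccl4 promoter, of a chemokine gene whose reads were not checked for unique mapping, had 396, 225, 1781 and 605. It fell by 1.55 with PGE2 in stimulated cells and fell by 0.81 with PGE2 at rest. An exonic peak of Tnip3, whose product binds A20, ran the other way, with 1015, 1007, 356 and 719 and a PGE2 change of 1.02 (adjusted p = 2.5e-08).

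Across the 30 libraries, the 3 peaks of other genes whose log2 values were most like the Rel promoter's, out of 34336 compared, were the promoters of Mir22hg (Pearson r = 0.979) and Birc3 (0.975) and an exonic peak of Junb (0.976). Those most like the Tnfaip3 peak 66.1 kb past its start were a 4930417O13Rik promoter (0.988) and intergenic peaks assigned to Ugt1a10 and Gm30173 (0.985 each). The libraries share groups and depth, so these values describe likeness over the 8 groups and carry no test.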

How the data were processed

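The deposited table gives, for 38526 peaks in 30 libraries, a signal of normalised read counts. Per the submitters' processing notes, the tools were Trimmomatic 0.39, Bowtie2 2.4.1, MACS2 2.2.7.1 and DESeq2, with the build mm10. Gene spans and promoter sequences are RefSeq's for GRCm38.p6, the assembly that mm10 names. For duplicate reads and the transposase offset, the handling was not given in the sources used here. Within each library 100% of values came to a whole number of reads (tolerance 0.05), as counts divided by 1 size factor per library would be, and 8444350 to 20153816 reads per library were recovered. No member was at 0 in any library.

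Peaks were tested with limma 3.58.1 (R 4.3.3; trend, empirical Bayes) on log2(normalised count + 1), with 1 mean for each of the 8 groups over all 30 libraries and no replicate block. Tests were two-sided and adjusted by Benjamini-Hochberg over the 38525 peaks with a mean of at least 10, and a peak was called at an adjusted p under 0.05. A fold on this scale understates the change of low peaks. Genotype interactions are the effect in WT minus that in KO cells. Alternatives were TMM and total-read scaling, edgeR 4.0.16 and DESeq2 1.42.0 on the recovered reads, pseudocounts of 0.5 and 10, no filter and a mean of at least 50, the groups of a comparison alone, the replicate number as a block, and each library left out. The limma fit without a block was tested on simulated counts of independent libraries, with changes set only in stimulated WT cells with PGE2. The alternatives were not tested in this way.

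The members and lists were chosen with earlier results of these data known. Values in every library were given for each gene's promoter peak with the highest mean and for the peaks with the largest absolute change on stimulation in untreated WT cells and with PGE2 in stimulated WT cells (group mean of at least 50); peaks named outside this rule are marked in the text. Up to 4 genes per list could be named, by the smallest p for PGE2 in stimulated WT cells. The lists were receptor-proximal adaptors and kinases, other IκB proteins and inhibitors, known targets, and markers of NK, B, T and myeloid cells; single results of some lists are not reported here. The most like peaks were the 3 of other genes with the highest Pearson r for the member with the highest mean and for that with the largest stimulation change.

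Replicate numbers come from the labels. Same-numbered libraries deviated together, every pair's correlation over 0.1, for PGE2 in stimulated WT cells (0.12 to 0.21), PGE2 in stimulated KO cells (0.22 to 0.53), PGE2 in resting KO cells (0.12 to 0.33) and KO against WT in untreated stimulated cells (0.13 to 0.21), and not in the other comparisons.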

Additional observations from a re-analysis of the deposited data

Results flagged for a closer look

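Among 102 groups of 4 libraries, over the 17 peaks given by library under the naming rule, 5 held a library far from the other 3, and chance gives about 1 in 20. The Nfkbid peak 8.2 kb from its start was at 404 in replicate 2 of stimulated KO cells with PGE2, beside 327 to 338. The Nfkbiz peak 103.3 kb past its start was at 119 in replicate 4 of stimulated WT cells with PGE2, beside 79.5 to 80.5. The Tnfaip3 promoter was at 1539 in replicate 3 of untreated stimulated WT cells, beside 1640 to 1660. The Tnfaip3 peak 55.3 kb past its start was at 8.56 in replicate 3 of resting KO cells with PGE2, beside 18.7 to 19.1, and at 95.7 in replicate 1 of untreated stimulated KO cells, beside 114.8 to 118.

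The interaction of PGE2 with genotype passed at 12 named peaks in stimulated cells and at 1 at rest, against 20% and 6.18% of all peaks. Part of the peaks were named for their PGE2 change in stimulated WT cells, which is a term of this difference, so the counts are a description only. There the WT effect minus the KO effect was, on the log2 scale, −1.66 at the Nfkb1 intron peak 62.9 kb from the start and −2.02 at that 51.3 kb from it. It was −0.47 at the Rel promoter and −1.61 at the Rel peak 15.6 kb upstream, and −1.14 at the Relb exon. It was −0.83 at the Nfkbia promoter and −2.07 at the Nfkbia intergenic peak, −0.88 at the Nfkbid promoter and −1.62 at the Nfkbid intergenic peak. It was −0.81 at the Nfkbiz promoter, −1.69 at the Nfkbiz intergenic peak and −1.90 at the Tnfaip3 peak 55.3 kb past the start. At rest it was 0.65 at the Tnfaip3 promoter.

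The interaction of PGE2 with stimulation in WT cells passed at 15 named peaks, against 25.3% of all peaks. This count too is a description only, since the naming rule used changes in the untreated and PGE2-treated stimulated WT cells that enter it. The stimulated minus the resting effect was −0.84 at the Nfkb1 promoter, and −2.41 and −1.61 at the Nfkb1 intron peaks 62.9 and 51.3 kb from the start. It was −0.55 at the Rel promoter, −1.94 at the Rel peak 15.6 kb upstream and −0.92 at the Relb exon, which missed the threshold without library 2 of resting WT cells with PGE2 (−0.77, adjusted p = 0.0534). At Nfkbia it was −0.77 in the promoter and −2.48 in the intergenic peak, and at Nfkbid −0.66 and −1.16. At Nfkbiz it was −0.84 in the promoter and −1.62 in the intergenic peak. At Tnfaip3 it was −0.58 in the promoter, −2.91 at the peak 66.1 kb past the start and −1.41 at that 55.3 kb past it.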

How the results depend on the processing

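Of 15625 values of single peaks under the alternatives, 15358 kept their direction and their side of the threshold, 142 lost a call, 125 gained one and 0 reversed. Counts of members called stayed within 1.5 times the reported count under every setting, except KO against WT in untreated resting cells, which gave 0 to 2 with 1 library left out and 2 without library 2 of untreated resting KO cells. Leaving out 1 library gave 12 to 16 for PGE2 in resting WT cells, 51 to 53 for stimulation in WT and 46 to 50 in KO cells, 36 to 43 for PGE2 in stimulated WT cells and 18 to 24 for stimulation under PGE2. For the interactions it gave 7 to 11 (PGE2 by genotype at rest), 29 to 34 (PGE2 by genotype, stimulated) and 35 to 38 (PGE2 by stimulation). With the replicate number as a block the counts were 19 for PGE2 in resting WT cells, 53 and 51 for stimulation in WT and KO cells, 44 for PGE2 in stimulated WT cells, 25 for stimulation under PGE2, and 11, 33 and 38 for those interactions, and the Nfkb1 intron peak 51.3 kb from the start was then called lower with PGE2 in resting WT cells (−0.63, adjusted p = 0.0356). In comparisons where the libraries share only a number, each of the 3 pairs of PGE2 in resting WT cells and of stimulation under PGE2 correlated best with its own number, a hint from the data and not from the design. Other scalings moved the median log2 change of all peaks by at most 0.052. Peaks under about 20 normalised counts in a group rest on few reads, the fewest being 1, so small changes there were not detectable at this depth.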

Other observations

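The few members that went against the rest are described here by their WT means, in the order untreated resting, resting with PGE2, untreated stimulated and stimulated with PGE2. Besides the Tnfaip3 peak 47.0 kb upstream, 5 peaks fell with stimulation in WT cells. They were the Nfkb1 exonic peak 106.3 kb from the start (375, 470.4, 294 and 441), the Nfkb1 intronic peaks 89.0 kb (414, 499, 285 and 504) and 81.4 kb from it (107, 92.7, 64.8 and 78.8), the Nfkbia intergenic peak 18.7 kb past its start (218, 171, 115 and 129.5) and the Nfkbiz intergenic peak 80.7 kb past its start (99.3, 98.5, 61.4 and 83.9). The log2 changes ran from −0.93 at the Nfkbia peak to −0.35 at the Nfkb1 exonic peak. The first 2 of these Nfkb1 peaks also rose with PGE2 in stimulated WT cells, by 0.58 and 0.83.

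A Nfkb1 intronic peak 26.1 kb from the start was not called with stimulation (−0.10) and rose with PGE2 both at rest (0.48) and in stimulated cells (0.58), with means of 746, 1042, 696 and 1046. An Nfkbia exonic peak 3.7 kb past the start, just beyond the RefSeq gene's end, rose with PGE2 in stimulated cells (0.53, adjusted p = 0.0214), a call lost without library 3 or 4 of untreated stimulated WT cells (0.0581 and 0.136) or library 3 of stimulated WT cells with PGE2 (0.0514), and with DESeq2 (0.0551). All peaks of these 2 paragraphs were chosen after their values were seen.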
